A study of Mus musculus with 22 samples.

Results

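The genes described here are 9 factors that free or clear stalled ribosomes: Gtpbp1, Gtpbp2, Hbs1l, Pelo, Abce1, Zfp598, Nemf, Ltn1 and Ankzf1. They were chosen by symbol for their known function, and each symbol matched 1 of the 38924 Ensembl gene IDs in the deposited tables. All 9 were among the 16974 genes that passed the filter on low counts. Transcript levels came from polyA-selected, stranded RNA sequencing of whole spinal cord from mice aged 7 months on a mixed B6N;B6J background. Yars encodes the synthetase that charges tyrosine tRNA, and the mice carried its E196K allele in 0, 1 or 2 copies: 6 libraries were wild type (WT), 6 were E196K/+ (HET) and 10 were E196K/E196K (HOM). The labels give no sex or treatment. Nor do they state that libraries and mice correspond 1 to 1, so the spread behind the p-values may be technical. In whole cord, a change in the share of a cell type and a change of RNA per cell cannot be told apart.

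When a tRNA charged with its amino acid is scarce, a ribosome can pause on the matching codon and a following ribosome can run into it. ZFP598 (ZNF598 in humans) is a ubiquitin ligase that marks such collided ribosomes. PELO and the GTPase HBS1L enter a ribosome with an empty A site, and the ATPase ABCE1 then splits the subunits. NEMF and the ubiquitin ligase LTN1 work on the nascent chain still held by the large subunit, and ANKZF1 releases that chain from its tRNA. GTPBP1 and GTPBP2 are related GTPases of the translation factor class. In mice of the B6J strain, which carries a defect in a brain arginine tRNA gene, loss of Gtpbp2 leads to ribosome stalling and neuron death. Both substrains contribute to the background of every genotype here, and which allele of that tRNA gene each animal carried was not analysed here.

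The nucleotide-binding loop is the stretch that the GTPases and the ATPase of the set have in common, and its coding sequences also show how far the genes differ in base composition, to which several of the values below relate. Each line gives 48 bases of the coding sequence of a GENCODE M21 transcript, 5′ to 3′, read from GRCm38 transcripts. Capitals mark 24 bases whose codons spell glycine, 4 residues of any kind, glycine, lysine and serine or threonine. ABCE1 has 2 such loops, since it has 2 ATPase domains.
Gtpbp1, coding bases 487 to 534: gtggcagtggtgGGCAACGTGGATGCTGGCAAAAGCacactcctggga
Gtpbp2, coding bases 523 to 570: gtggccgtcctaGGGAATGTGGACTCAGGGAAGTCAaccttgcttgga
Hbs1l, coding bases 781 to 828: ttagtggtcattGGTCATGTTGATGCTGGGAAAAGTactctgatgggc
Abce1, coding bases 316 to 363: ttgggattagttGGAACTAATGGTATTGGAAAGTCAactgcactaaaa
Abce1, coding bases 1123 to 1170: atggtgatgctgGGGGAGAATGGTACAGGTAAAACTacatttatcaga
A second match of the same pattern in Hbs1l, at coding bases 403 to 426, is not shown. G and C made up 60.4% of the printed bases in Gtpbp1, 56.2% in Gtpbp2, 45.8% in Hbs1l, and 35.4% and 41.7% in the 2 stretches of Abce1. Of the 16 codons printed in each line, 10 ended in G or C in Gtpbp1 and in Gtpbp2, 6 in Hbs1l, and 2 and 7 in Abce1. Whole transcripts showed the same spread: GC content was 59.4% in Zfp598, 57.9% in Pelo, 56.5% in Gtpbp1, 56.2% in Gtpbp2, 53.8% in Ankzf1, 47.9% in Hbs1l, 42.6% in Ltn1, 42.4% in Nemf and 40.3% in Abce1, against a median of 50.4% over the tested genes that had a transcript. Zfp598 thus lay at the percentile 93.3 of tested genes, and Abce1 at 5.45.

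The promoters were searched for the composite element bound by ATF4, the transcription factor that carries the integrated stress response. Gtpbp2 is often listed among ATF4 targets. Chac1, a glutathione-degrading enzyme and one of the 12 stress response genes called in HOM against WT, has the element 193 bases before its start, and it is shown so that the letters searched can be seen in a gene that responded. The Gtpbp2 sequence is the whole 250 bases before the start, where the same search found none. Both are from RefSeq, GRCm38.p6, plus strand, with the element in capitals; in Chac1 it is read on the other strand.
Chac1, chr2:119351038-119351067: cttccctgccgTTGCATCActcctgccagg
Gtpbp2, chr17:46160782-46161031: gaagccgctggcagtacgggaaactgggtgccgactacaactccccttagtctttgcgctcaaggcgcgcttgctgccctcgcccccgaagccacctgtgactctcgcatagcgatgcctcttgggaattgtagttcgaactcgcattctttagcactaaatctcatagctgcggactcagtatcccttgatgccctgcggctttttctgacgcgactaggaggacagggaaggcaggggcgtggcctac
The element TGATGNAA, sought on both strands in windows from 250 bases before to 50 bases after the start, was present in 0 of the 9 promoters and in 3.97% of 32851 RefSeq promoters. At that share, none among 9 promoters is the usual result. How many of the stress response genes hold the element was not counted. Chac1 and Gtpbp2 thus do not show that the element separates genes that responded from those that did not. The CCAAT box (CCAAT) was found in 5 of the 9, Abce1, Ankzf1, Gtpbp1, Ltn1 and Nemf, against 37.4% of all promoters, and the GC box (GGGCGG) in 3, Gtpbp1, Hbs1l and Zfp598, against 35.7%. No member held a TATA box (TATAAA), which 13.6% of all promoters held. These matches are letters in a window and not measured binding.

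In GRCm38, 2 of the genes, Gtpbp2 (chr17:46161032-46169370, plus strand) and Zfp598 (chr17:24669687-24682016, plus strand), overlapped no other annotated gene. Pelo (chr13:115088355-115090186, minus strand) lies inside the integrin gene Itga1 and overlaps Gm49395, both on the same strand, so their reads could count towards it whatever the strand setting. Itga1 ran from 1.52 to 2.6 TPM in all libraries but HOM 3, where it was 3.94 (the RSEM level scaled to transcript length and library size). Nemf (chr12:69310522-69357165, minus strand) overlaps Klhdc2 on the plus strand, a gene with a median of 151.14 TPM. Ankzf1 (chr1:75192151-75199387, plus strand) overlaps Atg9a and Glb1l on the minus strand. Gtpbp1 (chr15:79690845-79721479, plus strand), Hbs1l (chr10:21295979-21368898, plus strand), Ltn1 (chr16:87376651-87432612, minus strand) and Abce1 (chr8:79683462-79711740, minus strand) overlap only noncoding genes or a pseudogene. The strand setting of the counting is not given in the sources used here, so reads of genes on the opposite strand could count towards Nemf, Ankzf1, Gtpbp1, Hbs1l, Abce1 and Pelo, which overlaps the antisense gene Gm10734. Expected counts were whole, to within 0.001, in all 22 libraries for Gtpbp2, Pelo, Zfp598, Nemf, Ltn1 and Abce1, and not whole in 22 libraries for Gtpbp1, 21 for Ankzf1 and 1 for Hbs1l, with a distance from a whole number of at most 0.48.

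Library totals ran from 24.45 M to 42.81 M rounded expected counts, and the sum for a single member in a library from 302 (Pelo) to 3542 (Abce1). Yars itself ran from 109 to 129 CPM (rounded counts scaled to library size after TMM adjustment). Its means were 113 in WT, 115 in HET and 121 in HOM. HOM exceeded WT by 0.1 in log2 (SE 0.0332, unadjusted edgeR p = 0.00639, edgeR adjusted p = 0.643). A change of 1 residue need not alter transcript level, so the Yars values do not test the labels. Defining markers of neurons, motor neurons, oligodendrocytes, astrocytes and microglia were present in every library. One library stood apart: HOM 3 had 2510 summed CPM of 7 Schwann cell markers against at most 121 in the other HOM libraries, 495 against at most 63.6 for fibroblasts, 1680 against at most 891 for blood and 13.2 against at most 1.37 for skeletal muscle. Its marker sums were the lowest of all libraries for neurons (6960 CPM), motor neurons (113), oligodendrocytes (16200), astrocytes (4300) and microglia (241). These marker sums were scaled to library totals without the TMM adjustment. No member was called with or without HOM 3. Titles begin with 39992, 40411 or 40412, numbers the labels do not explain. These held 5, 3 and 2 HOM libraries, 1, 2 and 3 WT libraries, and 0, 1 and 5 HET libraries.

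No gene of the 9 differed between genotypes at an adjusted p below 0.05 in any comparison. In HOM against WT, where the test (edgeR quasi-likelihood, Benjamini-Hochberg adjustment over all genes) called 0.0943% of 16974 genes, 6 of the 9 had a higher mean and 3 a lower mean, and 53.7% of all tested genes were higher. Their median log2 fold change was 0.0332, against 0.00652 over all genes tested. In 1 of the 9, Zfp598, the unadjusted p was below 0.05, as in 5.91% of all genes (3.62% higher and 2.3% lower). In HET against WT the test called 0% of genes, and an unadjusted p below 0.05 was found for 0 of the 9 and for 578 genes in all (3.41%). The number of genes called at an adjusted p below 0.05 in HET against WT was also 0 by DESeq2, by voom and by limma-trend on TPM. In HOM against HET the edgeR test called 0.106% of genes and none of the 9, and the unadjusted p was below 0.05 for 0 of the 9 against 8.8% of genes. The trend over the number of E196K alleles called 0.1% of genes and none of the 9, and gave an unadjusted p below 0.05 for 1 of the 9, again Zfp598, against 6.9% of genes. The group ranges of every member overlapped in all 3 comparisons, while HOM and WT did not overlap in 20 genes with HOM higher (0.118%) and 1 with HOM lower (0.00589%). Groups free of overlap made up 0.0471% of genes (higher) and 0.0943% (lower) in HET against WT, and 0.124% and 0.106% in HOM against HET. The HET and HOM comparisons share the WT libraries, so their values are not independent.

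**Figure D1:**
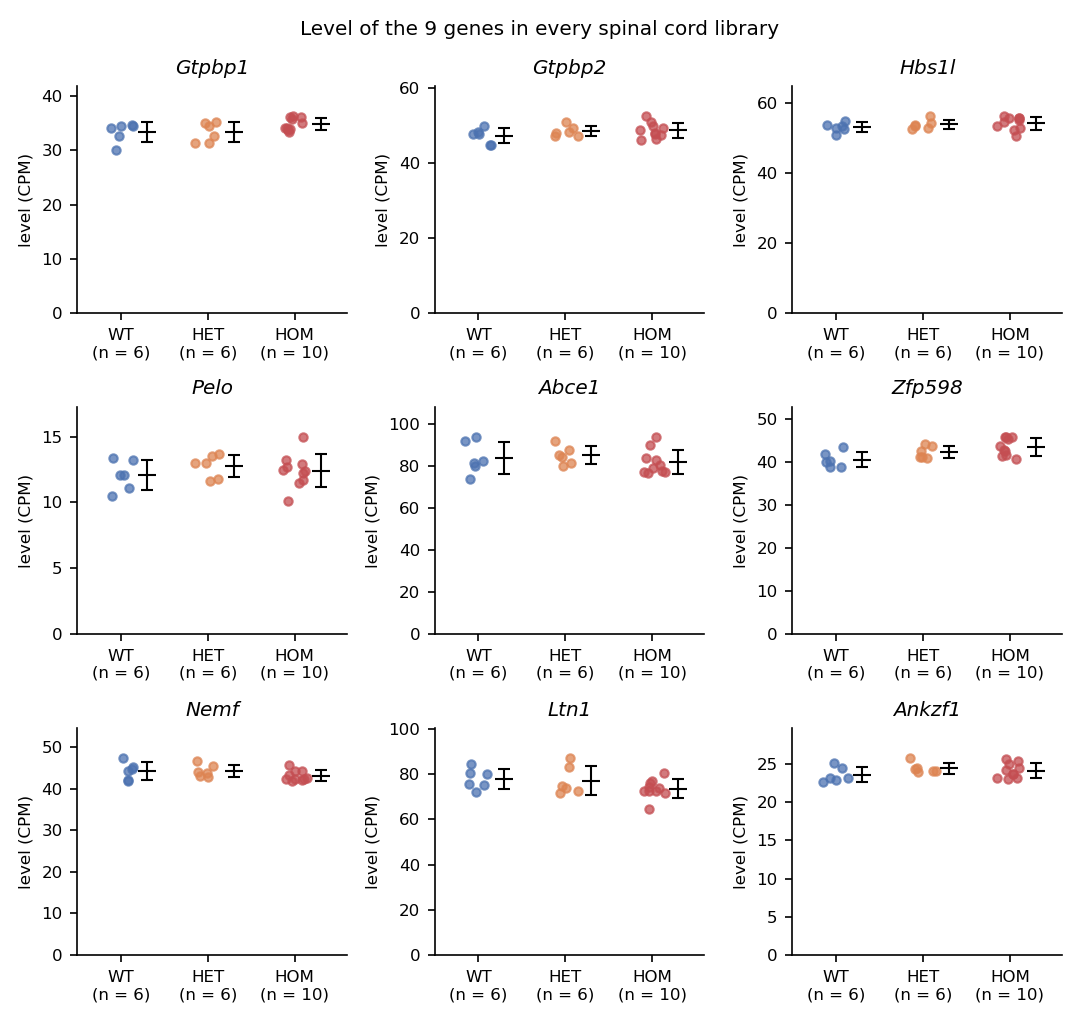
Level of each gene in CPM (vertical axes, from 0) in every library, by genotype; points are libraries and the bar beside each group is its mean with SD. The 3 genotypes overlap in all 9 panels, and Zfp598 has the largest difference between the HOM and WT means in relation to its spread, 43.6 against 40.6 CPM.

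Per unit of length, Gtpbp2 was the most abundant of the set and Pelo the least. Mean levels over the 22 libraries were 64.7 TPM for Gtpbp2 (SD 6.66), 40.4 for Abce1 (SD 2.17), 36.7 for Hbs1l (SD 1.79), 24.2 for Zfp598 (SD 1.89), 22.6 for Ankzf1 (SD 1.46), 21.8 for Nemf (SD 0.848), 18.7 for Gtpbp1 (SD 1.41), 17.4 for Ltn1 (SD 0.974) and 16.0 for Pelo (SD 1.56). Gtpbp2 lay above Abce1 in all 22 libraries without overlap of their ranges (53.1 to 79.9 and 35.5 to 43.7 TPM). The place of Gtpbp2 depends on its RSEM length estimate, a mean of 1549.7 bases. Its transcript with the longest coding sequence has 2587 bases. In CPM, which does not divide by length, its mean was 48.2, below Abce1 (83.4), Ltn1 (75.8) and Hbs1l (53.8). In TPM Hbs1l lay above Zfp598 without overlap too (33.7 to 41.1 and 20.4 to 27.2). All other neighbours in this order overlapped. Abce1 exceeded Hbs1l in 20 of the 22 libraries, Zfp598 exceeded Ankzf1 in 18, and Ltn1 exceeded Pelo in 17. Partners differed in TPM: the range of Nemf (20.4 to 23.9 TPM) lay above that of Ltn1 (15.4 to 19.6), and that of Hbs1l above that of Pelo (12.6 to 18.1). The Nemf values rest on a length of 3721 bases in the deposited data. The 1 transcript listed for Nemf has 4732 bases in GENCODE M21, and a longer length would give a lower TPM.

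Of the GTPBP pair, Gtpbp1 ran in CPM from 30.0 to 34.6 in WT (median 34.3), from 31.4 to 35.2 in HET (median 33.6) and from 33.3 to 36.4 in HOM (median 34.5). The lowest library of all was WT 5, and 5 of the 10 HOM libraries lay above every WT library. HOM exceeded WT by 0.06 on the log2 scale (SE 0.0361, 95% interval -0.02 to 0.13, edgeR adjusted p = 0.815). With the GC slope of each library, described below, in the model, the difference was 0.0275 (SE 0.0296, edgeR adjusted p = 0.969). Gtpbp2, the gene whose loss causes neuron death on the B6J background, ran from 44.8 to 49.9 CPM in WT (median 47.8), from 47.1 to 50.8 in HET (median 48.1) and from 46.2 to 52.6 in HOM (median 48.4). Only 2 HOM libraries lay above all WT libraries, and the HET range lay inside the HOM range. On the log2 scale it was higher by 0.05 in HOM than in WT (SE 0.0312, interval -0.02 to 0.11, edgeR adjusted p = 0.819), and by 0.04 in HET than in WT (SE 0.0349, edgeR adjusted p = 1.0). The upper bound of the HOM interval corresponds to 1.08-fold. A list of 30 stress response targets, by comparison, had 28 members higher in HOM and 12 called, with a median of 0.219. That list had been chosen with its rise in these libraries known.

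The level of Gtpbp2 varied more between libraries in TPM than in CPM. The deposited data list 17 transcripts for it, which have 330 to 2966 bases in GENCODE M21. The mean transcript length that RSEM estimated ran from 1373.66 to 1699.51 bases between libraries. Group means were 1536.7 bases in WT (SD 111), 1507.4 in HET (SD 85.1) and 1582.9 in HOM (SD 104). These spreads exceed the differences between genotypes. Since TPM divides by this length, Gtpbp2 TPM ran from 53.1 to 79.9 where its CPM ran from 44.8 to 52.6, and the mean in HOM was below that in HET in TPM (64.2 against 67.7) and above it in CPM (48.7 against 48.4). The log2 difference of HOM against HET was 0.01 from counts and -0.0801 from log2(TPM + 1) (SE 0.0709, limma-trend adjusted p = 0.926). Ankzf1, with 8 transcripts, had a length estimate of 1921.03 to 2224.03 bases. Hbs1l, which has 2 transcripts with similar lengths, stayed between 2784.66 and 2787.87 bases, and its short isoform could not be told from the long one in gene counts. The other 6 genes had 1 length in every library.

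**Figure D2:**
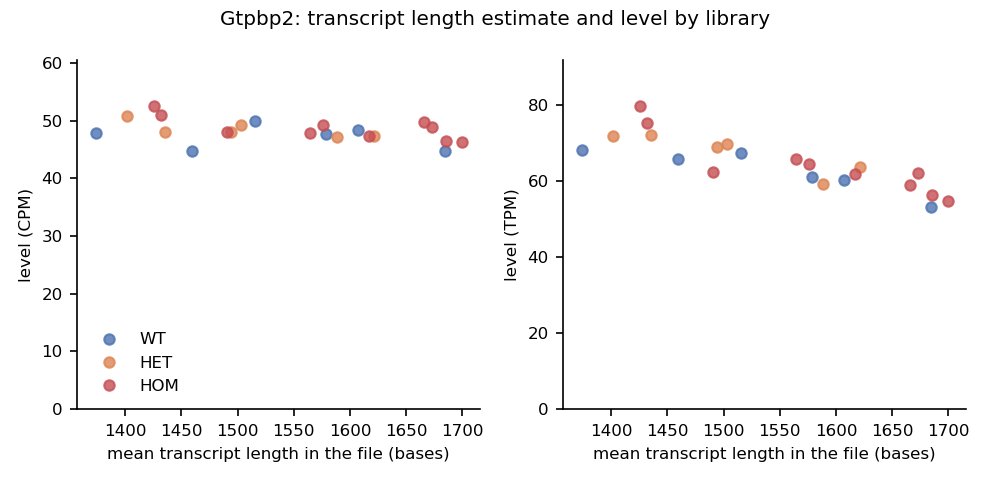
Gtpbp2 level in CPM (left) and in TPM (right) against the mean transcript length that RSEM estimated in the same library, in bases; each point is 1 library. CPM stays between 44.8 and 52.6 across the range of lengths, while TPM falls from the shorter to the longer estimates.

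None of the subunit-splitting factors passed the test. Hbs1l, the GTPase that brings PELO to the ribosome, ran from 50.9 to 55.0 CPM in WT (median 53.2), from 52.6 to 56.4 in HET (median 53.5) and from 50.6 to 56.3 in HOM (median 54.9). The HOM range enclosed nearly all of both other ranges, and the gene varied least among the 9 over all libraries (coefficient of variation 2.99%). HOM minus WT was 0.03 in log2 (SE 0.0269, interval -0.02 to 0.09, edgeR adjusted p = 0.828). Pelo ran from 10.5 to 13.4 CPM in WT (median 12.1), from 11.6 to 13.7 in HET (median 13) and from 10.1 to 15 in HOM (median 12.5), so both the lowest and the highest library were homozygous. It was the least covered member, with 302 to 549 counts a library, and the most variable (coefficient of variation 8.96%). Its fold change in HOM against WT was 1.03 with an interval of 0.936 to 1.13 (edgeR adjusted p = 0.906), the widest interval of the set.

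Abce1, the ATPase that separates the subunits, ran from 73.8 to 94.1 CPM in WT (median 82.0), from 80.2 to 92.2 in HET (median 84.9) and from 76.9 to 93.9 in HOM (median 79.8). No HOM library lay outside the WT range. HOM minus WT was -0.04 in log2 (SE 0.0503, interval -0.14 to 0.07, edgeR adjusted p = 0.886), and it had the opposite sign, 0.0274 (SE 0.032), when the GC slope of each library described below was in the model. Neither value passed the test.

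Zfp598, the sensor of collided ribosomes, had the smallest unadjusted p of the 9. It ran from 39.0 to 43.5 CPM in WT (median 40.2, mean 40.6, SD 1.77), from 41.1 to 44.3 in HET (median 42.0, mean 42.4, SD 1.41) and from 40.8 to 46.0 in HOM (median 43.2, mean 43.6, SD 2.07). The genotype means were in the order of allele number, and 5 of the 10 HOM libraries lay above all 6 WT libraries, but the ranges overlapped. HOM against WT gave a fold of 1.07 (interval 1.02 to 1.13), a log2 fold change of 0.10 (SE 0.034), an unadjusted p of 0.00621 that ranked 159 among all genes, and an edgeR adjusted p of 0.643. The trend per allele was 0.05 (SE 0.0165, unadjusted p = 0.00557, edgeR adjusted p = 0.538). HET against WT gave 0.06 (SE 0.038) and HOM against HET 0.04 (SE 0.034), with edgeR adjusted p-values of 1.0 and 0.76. The title prefixes 39992, 40411 and 40412 held 5, 3 and 2 HOM and 1, 2 and 3 WT libraries. Within them the HOM minus WT difference in log2 CPM was 0.11, 0.06 and 0.17, which was not tested. With the GC slope in the model it was 0.0752 (SE 0.0296, edgeR adjusted p = 0.939). Over all alternatives in HOM against WT the adjusted p ran down to 0.343, reached without WT 4, the WT library with the highest Zfp598.

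The genes whose levels were most like those of Zfp598 over the 22 libraries, by the Pearson correlation of log2(CPM + 0.5), were Ranbp3 (0.84), Gramd1a (0.81), Mier2 (0.80), Plppr3 (0.78) and Fmnl1 (0.78). Their log2 fold changes in HOM against WT ran from 0.06 to 0.12, and none was called (edgeR adjusted p = 0.643 for Mier2 and 0.815 for the others). Genes with only a clone name or ID were left out of this search. Levels were not centred by genotype and the GC slope, which Zfp598 followed as described below, was not removed. Likeness was not tested and need not be particular to Zfp598.

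Of the factors that clear the nascent chain, Nemf ran from 41.9 to 47.5 CPM in WT (median 44.5), from 42.8 to 46.6 in HET (median 44.0) and from 41.8 to 45.8 in HOM (median 42.6). Here 6 of the 10 HOM libraries lay below every HET library, but 1 lay below every WT library. The highest HOM value was that of HOM 3. Nemf had a log2 fold change of -0.04 in HOM against WT (SE 0.0297, interval -0.1 to 0.02, edgeR adjusted p = 0.821).

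Ltn1, the ligase that works with NEMF, had the second smallest unadjusted p in HOM against WT. It ran from 72.1 to 84.4 CPM in WT (median 77.9), from 71.7 to 87.4 in HET (median 74.4) and from 64.7 to 80.5 in HOM (median 73.4). HOM 8 was the lowest library and HET 4 the highest, and 2 HOM libraries lay below all WT libraries. The fold in HOM against WT was 0.944 (interval 0.884 to 1.01, log2 fold change -0.08, SE 0.0459, unadjusted p = 0.0804, edgeR adjusted p = 0.815). With the GC slope in the model the log2 fold change was -0.0366 (SE 0.0358, edgeR adjusted p = 0.969). Ankzf1, which releases the chain, ran from 22.6 to 25.1 CPM in WT (median 23.2), from 23.9 to 25.8 in HET (median 24.2) and from 23.0 to 25.6 in HOM (median 24). HOM differed from WT by 0.03 in log2 (SE 0.0333, interval -0.04 to 0.1, edgeR adjusted p = 0.848). The WT and HET ranges overlapped only in part, and 5 of the 10 HOM libraries lay below every HET library.

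**Figure D3:**
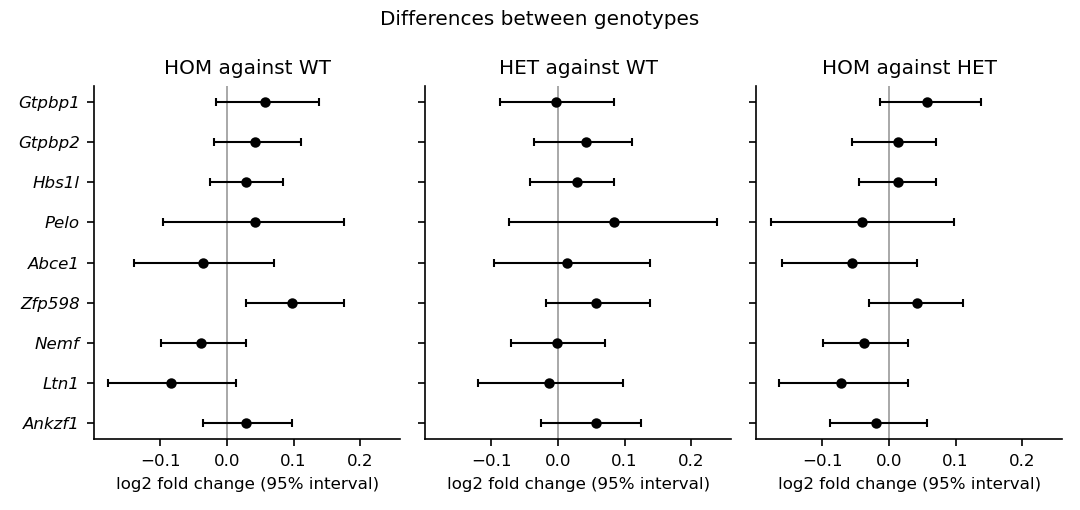
Log2 fold change of each gene (point) with its 95% interval (bar) for HOM against WT, HET against WT and HOM against HET, from the fit over all 22 libraries. Intervals are not adjusted for the number of genes; the only one that leaves out 0 is that of Zfp598 in HOM against WT, 0.03 to 0.17.

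Levels of some of the 9 genes varied with a measure of base composition between libraries of the same genotype. The share of all genes that did so was not computed, so this cannot be read as particular to the 9. For each library, the slope of log2 level against transcript GC content over 11930 genes with a mean of at least 5 CPM measured whether GC-rich transcripts were over- or under-represented. It ran from -0.18 to 0.098 log2 units per 10 percentage points of GC in WT (mean -0.029, SD 0.09), from -0.133 to 0.09 in HET (mean -0.004, SD 0.078) and from -0.062 to 0.099 in HOM (mean 0.02, SD 0.044). WT 5 and HET 3 had the lowest slopes, and the genotypes overlapped. The source of the slope, in the tissue, the RNA or the library preparation, was not tested. It was fitted to levels in these same libraries, so genes of high or low GC content in general are likely to follow it.

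Gene levels were set against this slope as deviations from the genotype means over 22 libraries, with permutations within genotypes and adjustment over the 9 genes. The slope came from levels in the same libraries, so small p-values were likely for genes of high or low GC content. Abce1, with the lowest GC content of the 9, fell as the slope rose (Pearson r = -0.83, Spearman rho = -0.79, adjusted permutation p = 9e-05 and 0.00045, unadjusted p for r = 1e-05, the smallest the permutations can give). Ltn1 (r = -0.70, rho = -0.73, adjusted p = 0.00207 and 0.00171, permutation test) and Nemf (r = -0.69, rho = -0.63, adjusted p = 0.00387 and 0.01, permutation test) did so too. These 3 have the lowest GC content of the 9. Gtpbp1 (r = 0.71, rho = 0.63, adjusted p = 0.00387 and 0.0129, permutation test) and Zfp598 (r = 0.61, rho = 0.64, adjusted p = 0.00387 and 0.00543, permutation test) rose with the slope.

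Genes close in GC content did not all follow the slope alike. GC content here is that of the transcript with the longest coding sequence. The deposited data list 17 transcripts for Gtpbp2, so the GC content of its counted RNA may differ. Gtpbp2, with a GC content close to that of Gtpbp1, gave r = -0.08 (rho = 0, adjusted permutation p = 0.732 and 0.989). Pelo gave 0.31, Hbs1l 0.11 and Ankzf1 -0.30 (adjusted permutation p = 0.24, 0.694 and 0.24). Without WT 5 and HET 3, the 2 libraries farthest from the median slope, r was -0.80 for Abce1, -0.63 for Ltn1, 0.60 for Zfp598, 0.49 for Gtpbp1 and -0.48 for Nemf. As deviations within title prefix and genotype, r was -0.86, -0.76, 0.68, 0.83 and -0.75 for the same genes, and without HOM 3 it was -0.84, -0.70, 0.62, 0.72 and -0.76.

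**Figure D4:**
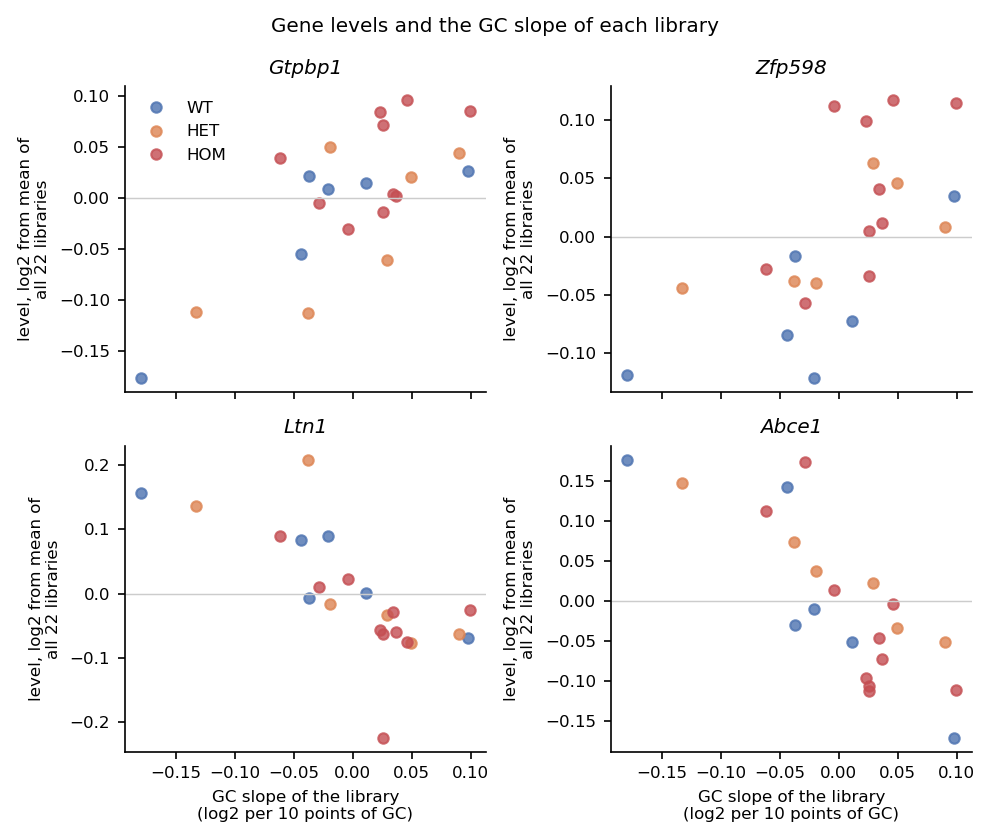
Level of Gtpbp1, Zfp598, Ltn1 and Abce1 (vertical axes, log2 deviation from the mean of all 22 libraries) against the GC slope of the library (log2 units per 10 percentage points of transcript GC); points are libraries by genotype. The GC-rich Gtpbp1 and Zfp598 are higher in libraries with a higher slope, and Ltn1 and Abce1, of low GC content, lower, as were their deviations from the genotype means, with r of 0.71 and 0.61 and of -0.70 and -0.83.

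Among the 36 pairs of members, Ltn1 and Abce1 was the only pair whose levels were correlated after adjustment over the pairs (r = 0.72, rho = 0.72, adjusted permutation p = 0.00468 and 0.009, over 22 libraries as deviations from genotype means). Their r was 0.79 without the 2 libraries farthest from the median, 0.71 within title prefixes and 0.72 without HOM 3. After the GC slope was removed from both genes it was 0.35. Both genes have a low GC content and followed the slope. The share of correlated pairs among other genes, or among genes of similar GC content, was not computed. The relation therefore cannot be read as particular to this pair. Gtpbp1 and Abce1, the next pair, gave r = -0.62 (rho = -0.56, adjusted permutation p = 0.0518 and 0.135), and -0.08 after the slope was removed. PELO and HBS1L act as a pair, as do NEMF and LTN1, but their transcripts gave no adjusted p below 0.05.

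Whether any of the 9 varied with the strength of the stress response was examined among the 10 HOM libraries. The stress response level, the mean over the 30 targets of log2 CPM centred per gene, lay between 0.129 and 0.257 in HOM, between -0.198 and -0.137 in HET and between -0.224 and -0.163 in WT. HOM was separate from both other genotypes, as the choice of genes made likely, so relations were computed within HOM only. No relation passed the test: r ran from -0.15 (Zfp598) to 0.37 (Abce1), with 0.27 for Gtpbp2, and every adjusted permutation p for r was 0.907. Spearman's rho ran from -0.24 (Nemf) to 0.33 (Gtpbp2), with adjusted permutation p-values of 0.796 or, for Ltn1, 1.0. Without HOM 6 and HOM 7, the 2 libraries farthest from the median, r was -0.76 for Zfp598, -0.64 for Ankzf1 and -0.50 for Gtpbp2 (exact permutation, n = 8, adjusted p = 0.262, 0.395 and 0.635). With those libraries Pearson's r was 0.27 for Gtpbp2 and 0.11 for Ankzf1, so its sign rested on them, while rho for Ankzf1 was negative with them too (-0.14). The title prefixes held 5, 3 and 2 HOM libraries, too few for values within them.

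None of the other genes of the pathway passed the test either. Of 67 genes on the 6 lists of related factors, 65 were tested, and none was called in HOM against WT, HET against WT, HOM against HET or the trend. In HOM against WT 38 were higher and 27 lower, with a median log2 fold change of 0.0143. At an unadjusted p below 0.05 there were 4 higher and 2 lower (of all genes, 3.62% and 2.3%).

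Among the 19 factors that sense or mark stalled ribosomes, 13 were higher and 6 lower (median 0.029), and the smallest p-values were those of Eif4e2, a cap-binding repressor of initiation (log2 fold change -0.05, SE 0.027, edgeR adjusted p = 0.815), and Ascc2, of the complex that takes collided ribosomes apart (0.06, SE 0.0381, edgeR adjusted p = 0.815). Among the 17 factors of termination and recycling, 8 were higher and 9 lower (median -0.000573). Mcts2, a recycling factor gene that arose by retrotransposition and may share reads with its parent gene, had a mean of 7.05 CPM in wild type and 6.28 in homozygotes (log2 -0.17, SE 0.0659, edgeR adjusted p = 0.815). Eif5a, which helps ribosomes past difficult peptide bonds and has near-identical copies, had 176 CPM in wild type and 182 in homozygotes (log2 0.05, SE 0.0231, edgeR adjusted p = 0.815).

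Among the 10 genes for clearance of the nascent chain, 6 were higher and 4 lower (median 0.0238). Tcf25, a partner of LTN1, had 586 CPM in wild type and 610 in homozygotes (log2 0.06, SE 0.0259, edgeR adjusted p = 0.815), and Trnt1, which adds the CCA end to tRNA, gave -0.07 (SE 0.0464, edgeR adjusted p = 0.819). Of the 11 genes for decay of the mRNA, 7 were higher and 4 lower (median 0.0152), with Cnot4, a ubiquitin ligase of the deadenylase complex, at -0.09 (SE 0.043, edgeR adjusted p = 0.815) and Dis3, an exosome nuclease, at 0.10 (SE 0.0525, edgeR adjusted p = 0.815).

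The 5 other Gtpbp genes included 2 with an unadjusted p below 0.05. Gtpbp6, which acts on mitochondrial ribosomes, was at 14.3 CPM in WT (SD 0.944), 15.5 in HET (SD 0.749) and 15.6 in HOM (SD 0.649). HOM was above WT by 0.13 in log2 (SE 0.0416, unadjusted p = 0.00447, edgeR adjusted p = 0.643), a little larger than that of Zfp598. Gtpbp3, a mitochondrial tRNA-modifying enzyme, gave 0.08 (SE 0.0333, edgeR adjusted p = 0.815). The median of these 5 was -0.00177. Only 3 of 5 mitochondrial rescue genes were tested, and they ran from -0.0227 to 0.0292, with Mrpl58, a peptidyl-tRNA hydrolase of the mitochondrial ribosome, at 0.03 (edgeR adjusted p = 0.879) and Mtrf1, a mitochondrial release factor, at -0.02 (edgeR adjusted p = 0.963).

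**Figure D5:**
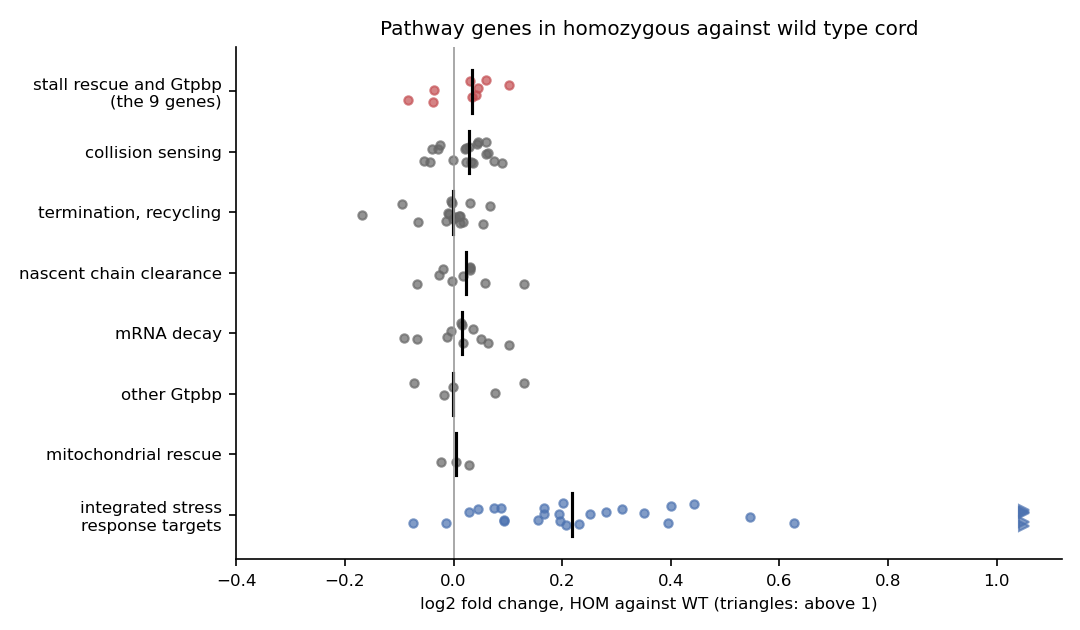
Log2 fold change in HOM against WT (horizontal axis) for each tested gene of the 9, the 6 related lists and the stress response targets; points are genes, vertical bars are list medians, and triangles mark 5 stress response genes above 1. All genes of the 9 and of the related lists lie between -0.168 and 0.13, and the median of the stress response targets is 0.219. The stress response targets were chosen with their rise in these libraries known, so their median is no independent contrast.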

How the data were processed

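Each library has 1 gene table, deposited by the authors, with RSEM expected counts, TPM, FPKM and mean transcript length, per the file headers. Bowtie2 2.2.0 and RSEM 1.2.12 were used, per the submitters' processing notes, with build, annotation and strandedness not given in the sources used here. Deposited expected counts share ambiguous reads, and 14.41% to 16.23% of values were not whole; they were rounded. Of 38924 gene IDs, 37607 matched a symbol and GRCm38 coordinates of GENCODE M21 by ID. filterByExpr left 16974 genes, TMM scaled the libraries, and edgeR 4.0.16 (quasi-likelihood, robust, R 4.3.3) fitted all 22 together by genotype, or by number of E196K alleles. Genes were called at an adjusted p below 0.05. CPM is the rounded count scaled to the TMM-adjusted library size. Deposited TPM, scaled by the authors' RSEM run to length and total, served for levels between genes and in limma 3.58.1 (log2(TPM + 1) and log2(TPM + 0.1)). DESeq2 1.42.0, voom, RLE scaling, other filters, title prefix, only the groups compared and each library left out were the alternatives; the GC slope as a covariate was added after seeing the data. Correlations used 100000 permutations, or exact ones for fewer than 10 libraries. The text names all 9 genes and the 2 with the smallest p in HOM against WT of each related list. It also names the 5 genes most like the member with the smallest p, with clone names and unnamed IDs left out. The 9 genes and the lists were chosen with earlier results of these data known. Of 164 list genes, 3 had no match. Scripts were tested on simulated counts.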

Additional observations from a re-analysis of the deposited data

Results flagged for a closer look

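Of 33 groups of libraries in which a single high or low value was looked for, 1 held one: Ankzf1 in HET, where HET 3 was at 25.8 CPM and the next library at 24.4, a gap of 0.743 of the whole range against a limit of 0.625 for 6 libraries. Chance gives such a value in about 5% of groups. HET 3 also had the lowest GC slope among HET libraries, -0.133, and the part of that slope in the Ankzf1 value was not tested.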

How the results depend on the processing

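Over 32 alternatives, none of 1143 recomputed log2 fold changes of the 9 genes was called (smallest adjusted p 0.305, in the trend), 1101 kept their sign and 42 did not. From TPM with an offset of 1 or 0.1, the sign changed in HOM against WT for Nemf (0.000911, 0.000904) and Abce1 (0.00386, 0.00398), in HET against WT for Gtpbp1 (0.0408, 0.0427), Nemf (0.0429, 0.0447) and Ltn1 (0.0282, 0.0296), and in HOM against HET for Gtpbp2 (-0.0801, -0.0813). With title prefix it changed for Gtpbp1 (0.0157) and Nemf (0.0016) in HET against WT and Ankzf1 (0.013) in HOM against HET; with voom for Nemf in HET against WT (0.000135). With the GC slope it changed for Abce1 in HOM against WT (0.0274) and the trend (0.0107), and for Nemf (0.0121) and Ltn1 (0.0095) in HET against WT; the cause was not tested. Leaving out each library gave -0.0185 to 0.0555 for Abce1, -0.0312 to 0.0146 for Gtpbp1, -0.0524 to 0.0104 for Ltn1 and -0.019 to 0.0202 for Nemf in HET against WT, -0.00399 to 0.0225 for Gtpbp2 in HOM against HET, and -0.00236 to 0.0307 for Pelo in the trend.

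DESeq2 called 28 genes in HOM against WT (22 higher, 6 lower), 76 in HOM against HET (35 higher, 41 lower, against 13 and 5) and 31 in the trend. In HOM against HET, TPM gave 11 genes with either offset, title prefix 10, and the GC slope 32 (16 higher, 16 lower). Leaving out each library gave 10 to 39 there: 10 without HET 3, 11 without HOM 1 or HOM 4, and 39 without HOM 10. The relation of Ltn1 and Abce1 was 0.35 after removal of the GC slope. Among HOM libraries without HOM 6 and HOM 7, r with the stress response level was -0.50 for Gtpbp2, -0.11 for Hbs1l, -0.05 for Nemf and -0.64 for Ankzf1, all of the other sign. No paired analysis was possible because the replicate numbers follow the order of deposition and pair no libraries. Depth limits Pelo most, with 302 to 549 counts a library.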

Other observations

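Tyrosine codons, which the product of Yars serves, made up between 15 (Gtpbp1) and 33.4 (Abce1) per 1000 codons of the 9 genes, against a median of 26.5 over 14987 tested genes with a coding sequence. Gtpbp2 had 16.6, Pelo 20.8, Ankzf1 21.4, Zfp598 22, Ltn1 23.2, Hbs1l 23.5 and Nemf 30.1, so Nemf and Abce1 lay above the median and the other 7 below it. Of the 2 tyrosine codons, TAC was the more frequent in Zfp598 (14 against 6), Gtpbp1 and Gtpbp2 (each 7 against 3), and TAT in Nemf (22 against 10), Abce1 (14 against 6), Hbs1l (10 against 6), Ltn1 (23 against 18) and Ankzf1 (9 against 7). Pelo had 4 of each. These are counts in GENCODE M21 coding sequences and no measure of translation.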
